A study of Drosophila melanogaster with 25 samples.

Results

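The Turandot genes of Drosophila melanogaster encode small secreted stress peptides. They were followed here by symbol and FlyBase identifier through 25 brain libraries. The 9 names in use, TotA, TotB, TotC, TotE, TotF, TotM, TotX, TotZ and Victoria, stood for 8 of the 16060 genes in the deposited table, because RefSeq lists Victoria as a synonym of TotE. The family was selected on its measured response to photodynamic exposure in these same libraries, so its differences between exposed and control brains are given below as a description. The calls of the fit across all genes are listed beside them, and nothing is read from those. Of the 8 genes, 5 had reads in at least 1 library (TotA, TotB, TotC, TotM and TotZ). A minimum of 1 RPKM in at least 5 libraries was passed by 3 of them (TotA, TotC and TotM). RPKM divides the reads of a gene by its length in kilobases and by the size of the library.

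Turandot proteins are induced in flies by bacterial infection, heat, dehydration, mechanical stress and oxidising agents, and they circulate in the haemolymph. The fat body, the fly's counterpart of liver and adipose tissue, is their best known source. TotA, the founding member, is known as a target of JAK-STAT signalling, in which Unpaired cytokines bind the receptor Domeless and activate the kinase Hopscotch and the transcription factor Stat92E. The IMD pathway and the p38 branch of MAP kinase signalling, through Mekk1, also bear on its induction.

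The brains came from flies that had undergone a long-term photodynamic exposure (PDE), 7 samples from females and 6 from males, and from unexposed controls, 5 samples from females and 7 from males. In a photodynamic exposure, light acts on a photosensitising compound and reactive oxygen species form. All libraries were made from total RNA of brain with the SMART-Seq mRNA LP kit. The labels give no strain, allele, age, compound, light dose, duration or statement on pooling of animals, so p-values measure only how these samples spread, which may be technical.

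Library totals ran from 8.88 M to 58.73 M reads. The neuronal gene brp and the glial gene repo, which were used to check the labelled tissue, were detected in every library. Another neuronal gene, elav, was at or below 0.0466 RPKM throughout. It overlaps another gene in part, and the cause of its low level was not tested. The glial gene moody, which lies wholly inside another gene, was listed at 0 in all libraries. The summed level of 14 photoreceptor genes ran from 80.9 to 9472.8 RPKM, with Arr2 and ninaA listed at 0. Among them 5 libraries stand apart as rich in retina, at 5277 to 9473 RPKM, namely female control 4, male controls 4, 5 and 6 and male PDE 3. Values without these 5 libraries, an alternative chosen after seeing the data, are given beside the results.

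TotA, TotC, TotB and TotZ formed a run of 4 genes on the plus strand of chromosome arm 3R, within 7328 bases. By the Ensembl BDGP6.54 annotation of the dm6 assembly, TotA (FBgn0028396) spans 20871036 to 20871700 and TotC (FBgn0044812) spans 20872988 to 20873580. TotB (FBgn0038838) follows at 20873938 to 20874522 and TotZ (FBgn0044809) at 20877736 to 20878363. TotX (FBgn0044810) lies 26553 bases beyond, at 20904917 to 20905518 on the minus strand, inside the gene Grik. TotM (FBgn0031701) stands alone on 2L at 5329857 to 5330464 on the plus strand. TotF (FBgn0044811, 19911815 to 19912377) and TotE (FBgn0053117, 19912938 to 19913516) lie side by side on the minus strand of 2L, both inside the gene sick. The coding sequences are short and alike in length, from 125 codons in TotF to 147 in TotZ. Members of the family are related in sequence, and how reads matching several of them were counted is not given in the sources used here, so some reads of one member can have been counted for another.

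Among the 5 members with reads, TotA had the highest level in each of the 25 libraries, in both sexes and with and without PDE. The 5 female controls held 4.40, 28.1, 6.94, 77.1 and 32.6 RPKM of TotA, and the 7 females after PDE ran from 32.5 through a median of 356 to 1280.0 RPKM. Male controls ran from 5.94 through a median of 10.3 to 24.5 RPKM, and males after PDE from 127 through a median of 295 to 1302.1 RPKM. In males the groups did not overlap, whereas in females 6 of the 7 PDE libraries lay above every control and the other, PDE 1, lay below controls 4 and 5. Group means were 29.8 ± 29.2 and 471 ± 466 RPKM in females (SD, n = 5 and 7) and 12.4 ± 6.01 and 449 ± 441 RPKM in males (SD, n = 7 and 6). The PDE median was 12.7-fold the control median in females and 28.7-fold in males. Since these are bulk samples, more cells that express TotA and more TotA RNA per cell cannot be told apart.

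In most exposed brains TotA ranked high among all genes by the deposited RPKM. This scale divides by the genomic span, introns included, for 11894 of the 13575 genes with recovered reads, so it lowers genes with long introns. TotA spans 665 bases, and its ranks are not ranks of transcript abundance. By RPKM TotA ranked 3 of all genes in female PDE 2 and 4 in both female PDE 4 and male PDE 6. Its median rank was 44 after PDE in females and 59.5 in males, against 1842 in female controls and 4224 in male controls. The exception was female PDE 1, in which TotA ranked 1458, near its rank of 1495 in female control 5 and behind its rank of 521 in female control 4. A few libraries carried much of each mean. Without the highest library of its group, the TotA mean was 337 RPKM after female PDE, 279 RPKM after male PDE and 18.0 RPKM in female controls.

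TotC, the neighbour of TotA, was also higher in the exposed groups, at a lower level than TotA. Female controls held 0, 2.59, 0.759, 11.2 and 3.23 RPKM, and females after PDE ran from 2.46 through a median of 40.1 to 180 RPKM. Male controls ran from 0.23 through a median of 0.416 to 1.0 RPKM and males after PDE from 11.9 through a median of 45.4 to 192 RPKM. Again the male groups were apart and the female groups overlapped, with PDE 1 below 3 of the 5 controls and the other 6 PDE libraries above all of them. Means were 3.55 ± 4.45 and 53.7 ± 60.6 RPKM in females and 0.548 ± 0.317 and 64.9 ± 66.2 RPKM in males (SD), and the ratio of the medians was 15.5 in females and 109 in males. Without the highest library of its group, the TotC mean was 1.65 RPKM in female controls (without control 4), 32.7 RPKM after female PDE (without PDE 2) and 39.5 RPKM after male PDE (without PDE 6). The male control level of TotC rested on 79 reads over 7 libraries. Female control 1 had no TotC read, where 3 reads would have been 0.231 RPKM.

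TotM, the member on 2L, reached levels near those of TotC. It was at 0.376, 5.62, 0.37, 13.5 and 5.04 RPKM in the female controls and at 6.94 to 174 RPKM, median 21.1, after female PDE. In males it was at 0.0591 to 1.09 RPKM, median 0.52, in controls and at 3.67 to 207 RPKM, median 29.1, after PDE. Female PDE 1 and 5 lay below female control 4, and in males every PDE library exceeded every control. Means were 4.98 ± 5.38 and 49.8 ± 59.2 RPKM in females and 0.50 ± 0.364 and 51.8 ± 77.1 RPKM in males (SD), and the medians differed by 4.19-fold and 56-fold. Male PDE 6 alone held 207 RPKM where the next library held 34.6 RPKM. The male PDE mean of TotM was 20.7 RPKM without it. Without the highest library, the TotM mean was 2.85 RPKM in female controls and 29.2 RPKM after female PDE.

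**Figure D1:**
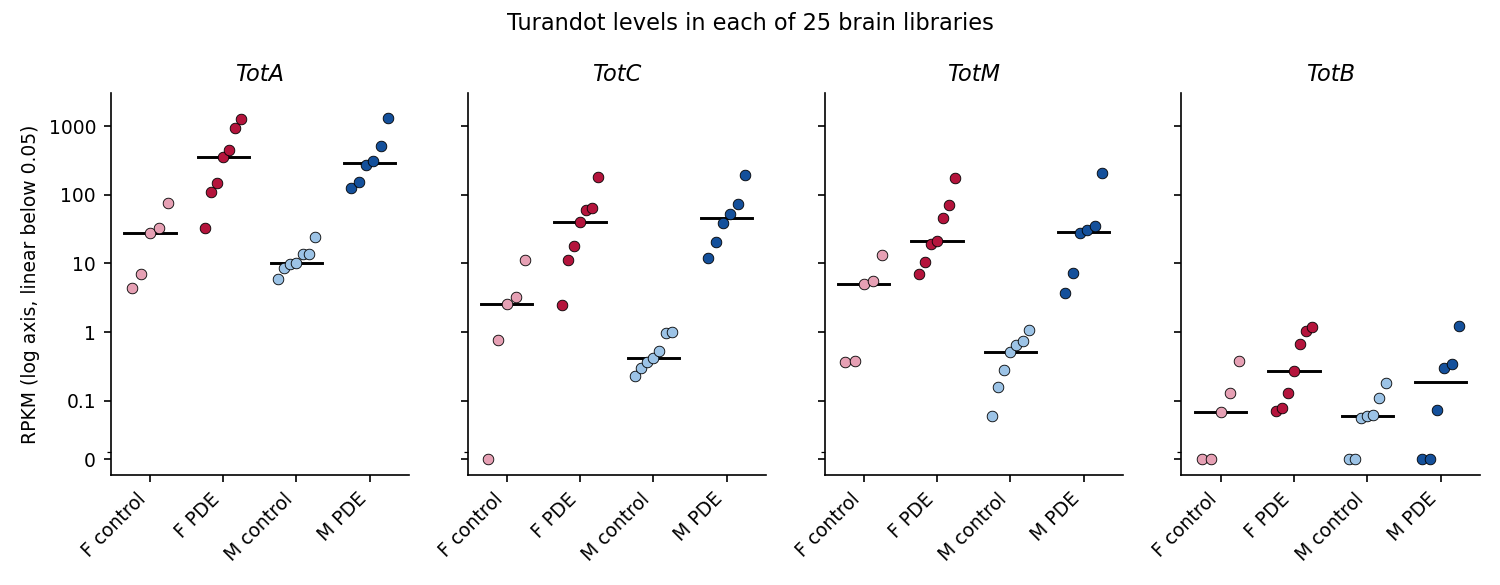
Deposited RPKM of TotA, TotC, TotM and TotB (vertical axis, logarithmic, linear below 0.05) in each of 25 brain libraries, by sex (F, M) and treatment; each point is 1 library and each bar the group median. Male PDE libraries lie above all male controls for TotA, TotC and TotM, while female PDE 1, at 32.5 RPKM of TotA, lies among the female controls.

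TotB and TotZ were barely detected, and their groups are given as summed reads. TotB had 5 reads in female controls, 53 after female PDE, 9 in male controls and 31 after male PDE. That is 0.0475 reads per M library reads in female controls (exact 95% Poisson interval 0.0154 to 0.111, counting error only) and 0.26 after female PDE (0.195 to 0.34). In males it is 0.0356 per M in controls (0.0163 to 0.0675) and 0.216 after PDE (0.147 to 0.306). The TotB reads after PDE were gathered in a few libraries, with 20 in male PDE 6, 18 in female PDE 7 and 16 in female PDE 2, while male PDE 1 and male PDE 5 had none. For each 1000 reads of TotC there were 8.75 TotB reads after female PDE and 4.98 after male PDE, against 19.6 and 114 in the control groups. The control ratios rest on 5 TotB and 255 TotC reads in females and on 9 and 79 in males. For each 1000 reads of TotA there were 0.903 and 0.648 TotB reads after PDE, against 2.1 and 4.24 in controls (females, then males). No difference in proportion is read from such few reads. TotZ had 0 reads in female controls, 1 after female PDE, 1 in male controls and 6 after male PDE, of which 5 were in male PDE 6. A fold is not given for TotZ.

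TotE, TotF and TotX were listed at 0 in all 25 libraries. All 3 lie wholly inside another gene on the opposite strand. Of 1048 protein-coding genes placed wholly inside another gene, 960 (91.6%) were listed at 0 in every library, against 287 of 7730 (3.71%) that overlap no gene and 29 of 4216 (0.688%) that overlap one in part. The 0 was shared by Arr2 and ninaA, photoreceptor genes that lie inside other genes, also in the libraries rich in retina. No level is therefore given for TotE, TotF and TotX. TotA, TotB, TotC, TotM and TotZ overlap no annotated gene.

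The proportions of the members differed between libraries. TotA made up 71.1% to 95.3% of the summed RPKM of the members with reads over all libraries. The ratio of TotA to TotC was 7.1 to 14.3 after female PDE, 6.05 to 10.7 after male PDE and 6.91 to 10.8 in the 4 female controls with TotC reads. In male controls it was wider and higher, from 8.62 to 44.7 with a median of 25.6, at TotC levels of at most 1.0 RPKM. In the exposed groups TotM varied more against TotA than TotC did. There the ratio of TotA to TotM ran from 3.06 (female PDE 1) to 20.3 in females and from 6.29 to 34.6 in males. Over all libraries it reached 101 in male control 1, where TotM had 1 read. The ratio of TotM to TotC ran from 0.195 in male control 1 (1 TotM read and 5 TotC reads) to 4.33 in female PDE 1. TotC exceeded TotM in 13 libraries and TotM exceeded TotC in 12, so these members had no fixed order.

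On the log2(RPKM + 1) scale of the limma fit, which understates the change of low genes, PDE minus control averaged over the sexes was 4.23 for TotA (SE 0.53), 4.07 for TotC (SE 0.52) and 3.51 for TotM (SE 0.54). These were the 3 largest positive averaged changes among the 7985 genes tested, and this is the property the family was chosen by. By sex the changes were 3.75 (SE 0.76) in females and 4.71 (SE 0.72) in males for TotA, 3.26 (SE 0.75) and 4.89 (SE 0.71) for TotC, and 2.91 (SE 0.79) and 4.11 (SE 0.75) for TotM. At a Benjamini-Hochberg adjusted p under 0.05, 0 of the 3 were called in females, where 0.0751% of all genes were called in either direction. In males 3 of 3 were called higher, where 0.113% of all genes were called higher and 0.175% in either direction. The average over the sexes had 3 of 3 called higher, against 0.326% of all genes called higher and 0.413% in either direction. Every male PDE library lay above every male control for 3 of 3 members, a separation that 0.238% of all genes showed. In females 0 of 3 were separated in this way, against 0.2% of all genes. Nothing is read from these counts, since the rule used the same contrasts. Without the 5 libraries rich in retina the averaged changes were 4.61, 4.32 and 3.71 for TotA, TotC and TotM. TotM was then no longer called in males, with a change of 4.04. With the replicate number as a block, TotA was called in females, with a change of 3.52, and so it was with quantile normalization. Without female PDE 1 there were 2 calls in females (TotA and TotC), and without female control 4 or male PDE 6 there was 1 (TotA). With voom on recovered reads, TotA alone of the 3 was called in males and on average.

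TotA, TotC and TotM were also among the most variable genes within groups. The SD of log2(RPKM + 1) within groups was 1.38 for TotA, 1.35 for TotC and 1.42 for TotM, with ranks of 41, 45 and 37 from the highest among 7985 genes, whose median was 0.14. Within female PDE the highest library held 39.4 times the TotA of the lowest, and within female controls 17.5 times. Male controls were the most even group, at 4.13 times.

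**Figure D2:**
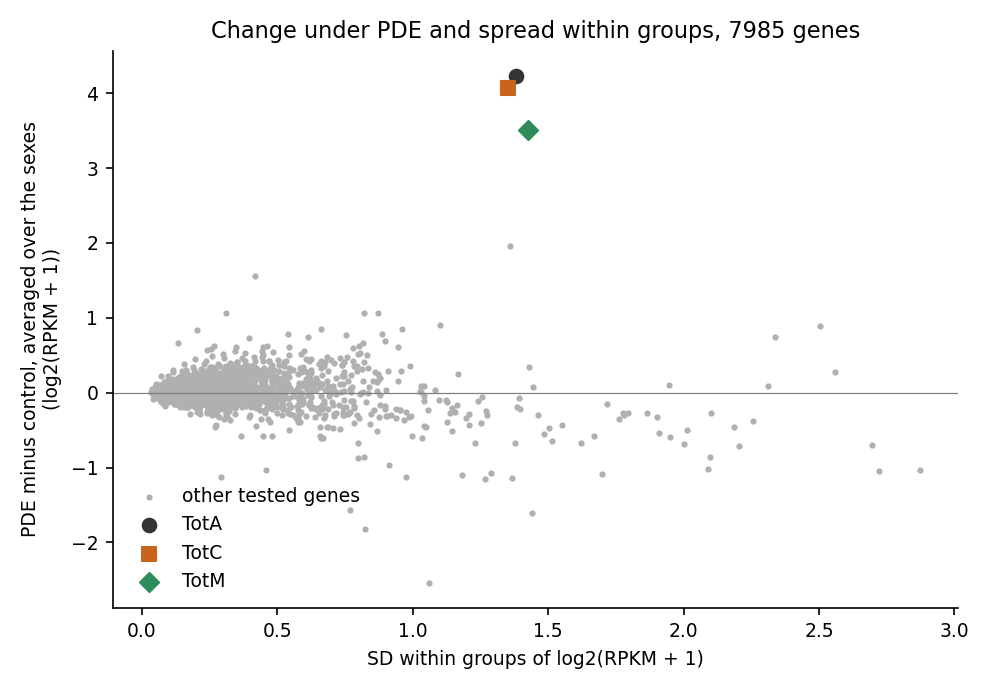
PDE minus control averaged over the sexes (vertical axis, log2(RPKM + 1)) against the SD within groups on the same scale (horizontal axis) for 7985 tested genes, each point 1 gene. TotA, TotC and TotM lie highest, at 4.23, 4.07 and 3.51, and far to the right of the median SD of 0.14.

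Whether the members varied together from library to library within a group was not used to choose them and was tested. TotA and TotC moved together closely, with Pearson's r of 0.96 and Spearman's rho of 0.94 over the 25 libraries after each value was centred on its group mean. TotA and TotM had r = 0.87 and rho = 0.86, and TotC and TotM had r = 0.90 and rho = 0.87, although TotM lies on another chromosome arm. Two-sided permutation within groups gave p = 1e-05 for r of each of the 3 pairs, the smallest that 100000 draws can give, and Benjamini-Hochberg adjustment over the pairs left these at 1e-05. Leaving out the 2 libraries farthest from the median on the first axis, female PDE 1 and female PDE 2, gave 0.94, 0.87 and 0.94 for TotA with TotC, TotA with TotM and TotC with TotM. Without the 5 libraries rich in retina the values were 0.96, 0.87 and 0.89. With the replicate number also taken out as a block, an alternative added after seeing the data, they were 0.93, 0.82 and 0.85. Libraries numbered 1 held the lowest mean centred profile of the 3 members in 4 of 4 groups, and those numbered 4 lay above the group mean in 4 of 4. The labels do not say what the numbers stand for, and the permutations within groups take no account of them. The part of reads shared between related members was not tested.

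By group, r was lowest in the male controls. For TotA with TotC it was 0.98 in female controls (n = 5), 0.98 in female PDE (n = 7), 0.48 in male controls (n = 7) and 0.99 in male PDE (n = 6). For TotA with TotM it was 0.99, 0.84, 0.37 and 0.97, and for TotC with TotM it was 0.95, 0.88, 0.70 and 0.98, in the same order of groups. These values are a description of small groups. In male controls TotC had 5 to 22 reads per library and TotM had 1 to 20. The highest male control held only 4.13 times the TotA of the lowest. The part of counting error and of this narrow range in the lower r was not tested, so weaker co-variation in male controls is not shown.

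**Figure D3:**
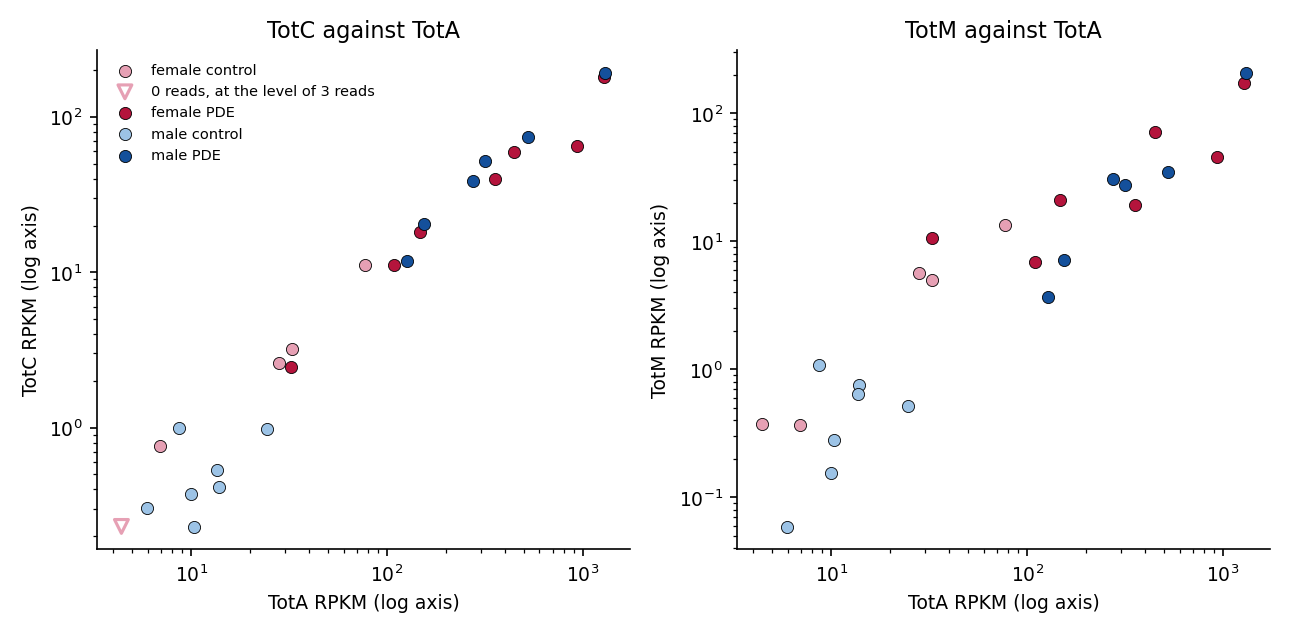
RPKM of TotC and of TotM (vertical axes, logarithmic) against RPKM of TotA (horizontal axes, logarithmic), each point 1 of 25 libraries coloured by group, with the 1 library without TotC reads drawn as a triangle at the level of 3 reads. In the TotC panel, points of the exposed groups and of the 4 female controls with TotC reads lie along a common band. Most male controls lie below it there, with TotC at 0.23 to 1.0 RPKM and a median TotA to TotC ratio of 25.6. In the TotM panel the groups overlap more. TotA to TotM ratios there ran from 6.29 to 34.6 after male PDE and from 7.95 to 101 in male controls.

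The difference between the sexes and the difference between their PDE changes were also left out of the rule. In controls, males minus females came to -0.69 for TotA (SE 0.76, 95% interval -2.27 to 0.88), -1.06 for TotC (SE 0.75, -2.61 to 0.48) and -1.47 for TotM (SE 0.79, -3.09 to 0.15) on the log2 scale. All 3 were lower in males on average and none passed, with limma adjusted p of 0.732, 0.538 and 0.378, while 4.75% of all genes were called between the sexes in controls. The intervals hold both 0 and a several-fold difference. Without the 5 libraries rich in retina the differences were -0.47, -0.64 and -0.98. Their size depended on the scale, as TotC and TotM averaged 0.548 and 0.50 RPKM in male controls. With voom on recovered reads they were -0.89 (SE 1.25), -1.52 (SE 2.62) and -2.91 (SE 2.30). A pseudocount of 5 gave -0.63, -0.50 and -0.70.

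After PDE the estimates for the sexes had mixed signs. Males minus females came to 0.27 for TotA (SE 0.72, 95% interval -1.23 to 1.77), 0.57 for TotC (SE 0.71, -0.89 to 2.04) and -0.27 for TotM (SE 0.75, -1.82 to 1.27). None of the 3 was called, at limma adjusted p of 0.915, 0.784 and 0.918, where 4.92% of all genes were called. The sign for TotA and for TotM depended on single libraries: without female PDE 1 the TotA difference was -0.23, and without male PDE 1 the TotM difference was 0.21. The sign also turned without male PDE 6 for TotA and without female PDE 2 or male PDE 2 for TotM.

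The male change exceeded the female change by 0.96 for TotA (SE 1.05, 95% interval -1.21 to 3.13), by 1.64 for TotC (SE 1.03, -0.49 to 3.76) and by 1.20 for TotM (SE 1.08, -1.04 to 3.44). These differences did not pass the test of the interaction, each with a limma adjusted p of 0.999. It called 0% of all genes, with 177 genes at an unadjusted p under 0.05. The larger folds in males and the calls made in males alone are thus not shown to differ from the female values.

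**Figure D4:**
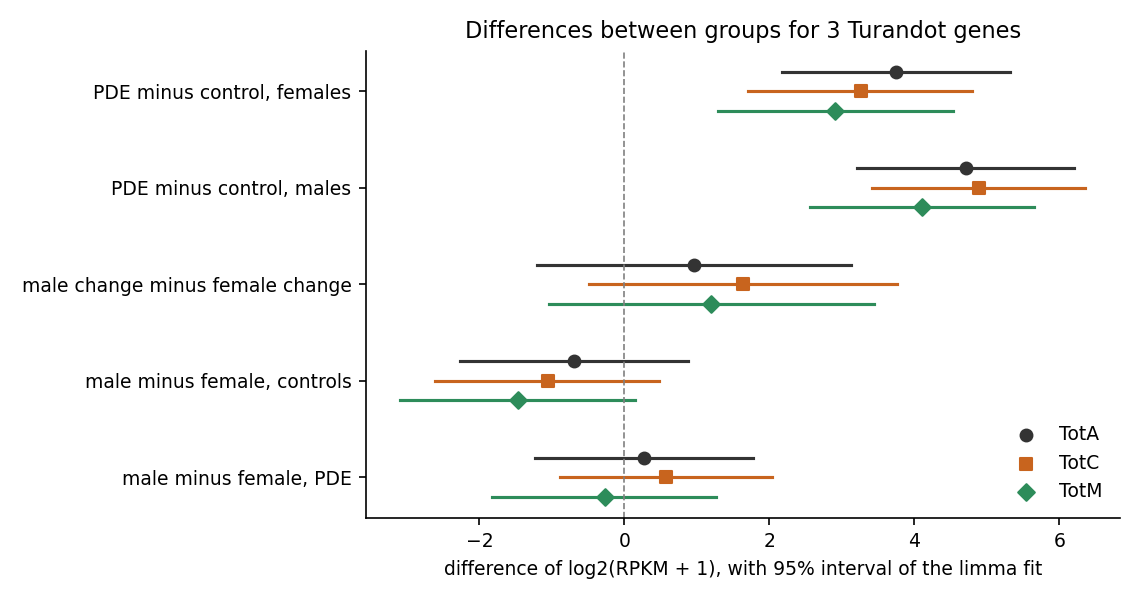
Differences of log2(RPKM + 1) (horizontal axis) for TotA, TotC and TotM in 5 comparisons, with points for the limma estimate and lines for its 95% interval. The PDE changes lie between 2.91 and 4.89, and the intervals of the sex differences and of the male minus female change all cross 0.

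The genes whose pattern within groups was most like the family's were sought among the 7982 other tested genes, by Pearson's r over the 25 libraries with the mean centred profile of TotA, TotC and TotM. The median r was 0.15. Cys, which encodes a cystatin-like inhibitor of cysteine proteases, came first with r = 0.83 and rho = 0.86, and with r = 0.85 without the 2 farthest libraries. It was at 98.4 ± 41 and 139 ± 34.8 RPKM in female controls and after female PDE, and at 90.1 ± 8.56 and 153 ± 73.6 RPKM in the male groups (SD). Cyp12c1, a cytochrome P450 gene, had r = 0.78, CG30148 had 0.77, CG43103 had 0.75 and rost had 0.74. CG5577, CG11655, yellow-f and the peroxiredoxin gene Prx4 each had 0.73, and CG5966 had 0.72. The points share library and depth, and the family's own r with log2 library total was 0.34.

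Genes called under PDE outside the family followed its spread between libraries to varying degrees. Of 30 such genes called in the averaged contrast, 23 were higher, and their r with the Turandot profile ran from -0.38 to 0.78 with a median of 0.26. Xrp1, a stress-induced transcription factor, had 0.31, the glutathione transferase gene GstE1 had 0.46 and Arc1, which encodes a capsid-forming protein, had 0.17. These 3 were chosen after their values were seen.

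The pathways known to act upstream of Turandot genes were examined as transcripts, and 0 of their tested genes were called in females, in males or on average, in either direction. The shares of all genes called were 0.0751%, 0.175% and 0.413%, so 0 calls among so few genes is near the background and not a result about the pathways. Counts and medians below are of the averaged contrast, in which the median change of all genes was 0.01. Of 6 JAK-STAT ligand, receptor and core genes 3 were tested, with a median change of 0.04. The kinase gene hop changed by 0.07 (SE 0.044) and the receptor gene dome by -0.05 (SE 0.037). The cytokine genes upd1, upd2 and upd3 were too low to test, with no library above 0.305 RPKM.

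Modulators and targets of JAK-STAT signalling had 8 of 10 genes tested and a median of 0.01. Tep2, which encodes a secreted thioester protein, changed by 0.39 (SE 0.124, limma adjusted p = 0.343) with means of 12.5 ± 3.51 and 14.9 ± 3.93 RPKM in female controls and PDE, and 10.1 ± 1.34 and 15.5 ± 4.86 RPKM in the male groups (SD). The feedback inhibitor gene Socs36E changed by 0.03 (SE 0.033). The IMD pathway had 9 of 13 genes tested and a median of 0.01. Its kinase gene Tak1 changed by 0.05 and Tab2, which encodes a partner of that kinase, by -0.11. Fadd and Rel were not analysed here.

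The p38 list had 7 of 8 genes tested and a median of 0.02, with Mekk1 at 0.05 and the transcription factor gene Atf-2 at -0.03. The JNK list had 9 of 10 genes tested, 8 of them with a positive estimate and a median of 0.06. The ligand gene egr was at 0.16 (SE 0.072, limma adjusted p = 0.716) and the receptor gene wgn at 0.09. Levels of these transcripts do not measure the activity of the kinases.

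Antimicrobial peptide genes, which IMD and Toll signalling induce, had 7 of 14 genes tested and a median of -0.51, opposite in sign to the Turandot changes. All 7 estimates were negative in females, with a median of -1.05, and 5 of 7 were positive in males, with a median of 0.06. These genes share inducing pathways, so their signs are not 7 independent observations. Female controls also varied widely, at 4.14 ± 7.22 RPKM of DptA and 23.3 ± 32.8 RPKM of AttC (SD). None was called. Dro, which encodes drosocin, changed by -1.61 on average (SE 0.549, limma adjusted p = 0.42), with means of 16.2 ± 18.2 and 1.16 ± 1.47 RPKM in female controls and PDE, and 7.29 ± 9.55 and 4.2 ± 6.32 RPKM in the male groups (SD). AttC, an attacin gene, changed by -1.08 (SE 0.647). Mtk was not analysed here.

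**Figure D5:**
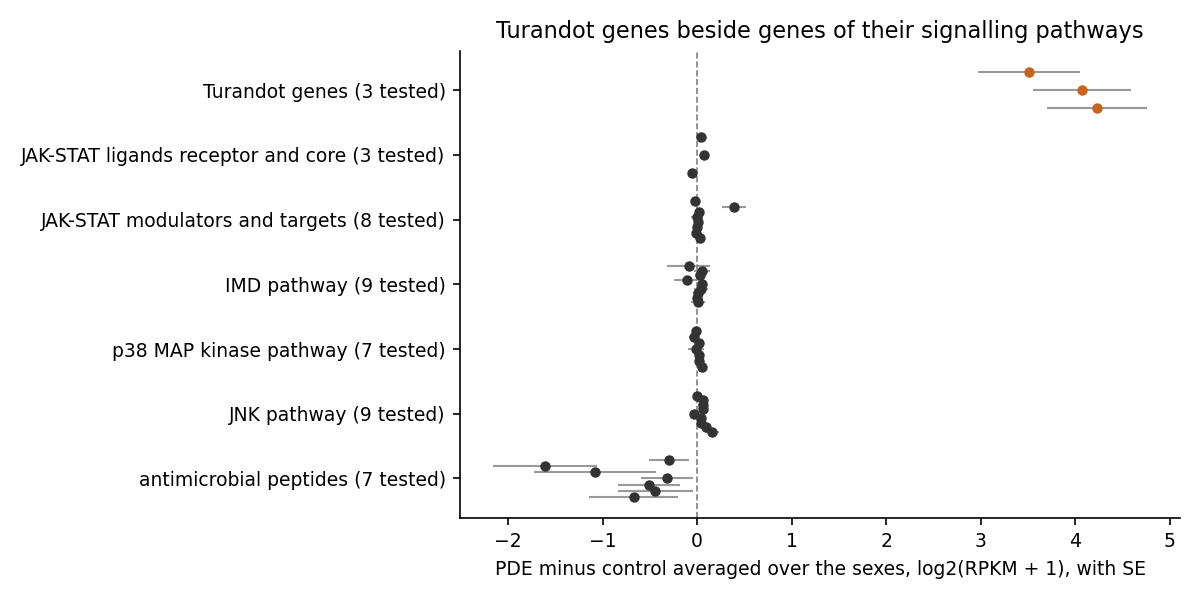
PDE minus control averaged over the sexes (horizontal axis, log2(RPKM + 1), points for genes and bars for SE) for the 3 tested Turandot genes and for tested genes of 6 pathway lists. The Turandot points lie at 3.51 to 4.23, while the medians of the 6 lists lie between -0.51 and 0.06.

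None of the few tested genes next to the Turandot loci was called in the averaged contrast, where 0.413% of all genes were. On 3R the flanking genes KaiR1D, Ktl, Grik and CG31191 changed by 0.02, 0.01, -0.01 and -0.03 on average. Beside TotM, the genes cype and Ncoa6 changed by 0.00 and -0.04, and fusl, which lies just beyond the annotated end of TotM on the opposite strand (5330470 to 5338073), changed by 0.35 (limma adjusted p = 0.207). The strand setting of the authors' counting is not given in the sources used here, so reads running past the end of TotM and reads of fusl may not be told apart. The r of fusl with the Turandot profile within groups was 0.24.

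Markers of other cells that a brain preparation can hold were summed in RPKM per library and set beside the family profile within groups, as a description over 25 libraries. Haemocyte genes, the markers of blood cells, had r = 0.50. Their sum, over 6 of 6 listed genes, was 8.2 to 30.8 RPKM in female controls and 13.1 to 44 RPKM after female PDE, and 10.2 to 13.7 and 11.5 to 31.2 RPKM in the male groups. All 5 tested haemocyte genes had a positive averaged change, with a median of 0.37, where the median of all genes was 0.01. None of them was called, where 0.413% of all genes were. Fat body genes, 6 of 7 listed, had r = 0.38, with sums of 23.9 to 78.3 RPKM in female controls, 33.8 to 72.6 after female PDE, 32.8 to 46.7 in male controls and 38.2 to 59.2 after male PDE. Most of the fat body sum was apolpp, at group means of 29.5 to 36 RPKM. Under PDE, averaged over the sexes, apolpp changed by 0.16 (SE 0.145) and Lsp2 by -0.96 (SE 0.349). No haemocyte or fat body marker was at 0 in all libraries. The remaining lists had r of 0.27 for photoreceptors, 0.24 for trachea, -0.04 for glia, -0.17 for muscle and -0.41 for neurons. Under PDE, 5 of 5 tested glial genes had a positive averaged change (median 0.15) and 0 of 12 photoreceptor genes did (median -0.36). The SE of the photoreceptor changes ran from 0.131 (norpA) to 1.093 (Rh3), with ninaE at -0.70 (SE 1.026). Most libraries rich in retina were controls (female control 4 and male controls 4, 5 and 6, beside male PDE 3). The photoreceptor signs are thus not independent, and no decrease under PDE is read from them. For fat body genes it was 2 of 4 (median 0.06) and for neuronal genes 2 of 6 (median -0.03), and 0 of these markers were called. With 0.413% of all genes called, 0 calls among so few markers is near the background. The part of these cells in the Turandot levels was not tested.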

How the data were processed

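Brain RNA of 25 samples in 4 groups was analysed, with sex, treatment and replicate number taken from the labels. Titles that say PDT were read as the PDE of the design text. The authors deposited 1 table of RPKM values. Per the submitters' processing notes, reads were aligned with STAR to dm6. The sources used here do not name the counter or its settings.

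The members and the gene lists were chosen with earlier results of these data known. Identifiers were matched to Ensembl BDGP6.54 (release 115) and RefSeq synonyms. Group means of log2(RPKM + 1) were estimated jointly over the 25 libraries by limma 3.58.1 (R 4.3.3, moderated errors, intensity trend), on the 7985 genes that reached 1 RPKM in 5 or more libraries. Benjamini-Hochberg adjustment ran over all genes of a contrast, and genes under 0.05 were called. Library totals (8.88 M to 58.73 M) were recovered from the RPKM steps. Whole reads were recovered for 13575 of 13581 expressed genes (99.96%), within 0.001 of a read. Gene length in the deposited values equalled the genomic span, introns included, for 11894 genes. For the other recovered genes the smallest length that gave whole reads was taken.

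Pair correlations used Python 3.11.15 and scipy 1.17.1. All members were named, with up to 2 genes of smallest p per pathway list and the 10 genes of highest likeness. The limma fit and the correlation of group-centred values were tested on simulated data, and the permutation step was not. Alternatives covered pseudocount, filter, quantile normalization, array weights, the groups fitted, voom on recovered reads, a replicate block, leaving out each library and, added later, the retina-rich libraries and a replicate block for the pair correlations. No column was left unassigned.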

Additional observations from a re-analysis of the deposited data

Results flagged for a closer look

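Within groups, the gap of the highest library to its neighbour was set against the range of the group (Dixon's test at the 95% level). It was large in 11 of 19 tested groups of members. For normally distributed values, chance flags about 1 in 20 when either end may be flagged, and fewer for the highest end alone. RPKM within groups is skewed to the right and the members vary together, so this rate does not apply and the gaps are given as a description. Male PDE 6 stood out for every detected member, at 1302.1 RPKM of TotA (next library 522), 192 of TotC (next 74.3), 207 of TotM (next 34.6), 1.22 of TotB (next 0.339) and 0.284 of TotZ (next 0.0571). Female PDE 2 stood out at 180 RPKM of TotC (next 64.7) and 174 of TotM (next 71.5). Among controls, female control 4 held 11.2 RPKM of TotC (next 3.23) and male control 4 held 24.5 of TotA (next 13.9). These 2 control libraries were also among the 5 rich in retina, and the part of retina in their Turandot levels was not tested. Single reads of TotZ among libraries at 0 stood apart by construction, in female PDE 7 (0.0611 RPKM) and male control 6 (0.0417 RPKM).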

How the results depend on the processing

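The direction of the PDE changes of TotA, TotC and TotM was positive under every alternative run, in females, in males and on average. In females the number of called members went from 0 to 1 with quantile normalization and to 1 with the replicate block (TotA both times). Leaving out each library gave 0 to 2, with 2 without female PDE 1 and 1 without female control 4 or without male PDE 6. With voom on recovered reads the number went from 3 to 1 in males and from 3 to 1 on average, with TotA alone left. Leaving out each library gave 3 to 3 in both. In males TotM lost its call with a pseudocount of 5 and without the 5 retina-rich libraries. The cause was not tested. The male minus female difference after PDE changed sign for TotM with array weights (0.00). Leaving out each library gave -0.23 to 0.64 for TotA and -0.88 to 0.21 for TotM. Under the alternatives run, 0 members were called between the sexes or for the interaction, 0 pathway genes were called under PDE, and pair correlations stayed at 0.82 or above. Over all tested genes, libraries with the same replicate number did not consistently deviate together (34 pairs, r from -0.69 to 0.75, median 0.08, 16 over 0.1), so the numbers are not read as pairs. For the Turandot profile itself, number 1 was lowest in 4 of 4 groups, and the block narrowed the SE of the averaged TotA change from 0.53 to 0.38. Apart from TotA in females, the block changed no call of a member. The averaged and interaction contrasts already use every group, so the fit of only the contrast's groups was not run for them. Few reads stand behind TotB and TotZ in all groups and behind TotC and TotM in male controls (79 and 74 reads over 7 libraries), although male controls were the deepest group by median.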
